A study of Mus musculus with 6 samples.

Results

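Matrix proteoglycans are core proteins that carry long sulfated sugar chains, the glycosaminoglycans, and the adhesive glycoproteins link cells and collagen to that gel. A list of 44 genes of these families was examined in the RNA of the whole aorta of male mice. By NCBI gene identifier, 43 of the 44 were found among the 18191 genes of the deposited table. The other, *Kera*, the cornea proteoglycan keratocan, was not analysed here. The study compared 3 libraries of wild type (WT) mice with 3 libraries of Npr1+/- mice, heterozygotes made by CRISPR-Cas9 knockout of *Npr1*, which encodes the receptor of the atrial and brain natriuretic peptides. The knockout is not tied to a cell type by any promoter or Cre, and both groups were otherwise untreated as far as the labels say. The age and strain of these mice and the number of animals behind each library are not given in the sources used here, so that p-values measure the spread between these libraries, which may be partly technical. A bulk library holds all cells of the vessel wall and of the tissue left on it, and fewer cells of a type and less RNA per cell cannot be told apart.

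The arterial wall is built by smooth muscle cells and adventitial fibroblasts. Small leucine-rich proteoglycans (SLRPs) such as decorin and biglycan bind collagen fibrils and control their width. Versican and the other hyalectans bind hyaluronan through link proteins and swell with water, perlecan and agrin sit in basement membranes, and syndecans and glypicans hold heparan sulfate at the cell surface. Thrombospondins, tenascins, fibronectin, vitronectin, osteopontin and periostin are glycoproteins that cells bind through integrins and related receptors.

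The estimated counts summed to between 13510970 and 16664343 per library. On that depth 3 counts stood for 0.18 to 0.222 CPM, the count scaled to the size of the library. The FPKM of *Npr1* itself (fragments scaled by transcript length and depth, a scale on which genes of different length can be compared) averaged 139 ± 23.1 (SD, n = 3) in WT aortas against 104 ± 31.7 (SD, n = 3) in the heterozygotes, and the groups overlapped. The library Npr1+/- 1 stood furthest apart, and WT 1 lay on the same side. On the main axis of variation between libraries (first principal component, 59.3% of the variance) Npr1+/- 1 was at -70 and WT 1 at -31.2. The other libraries were at 14.5 to 36.8. The 11 neuron markers of Npr1+/- 1 summed to 297 FPKM against 67.7 to 82.2 in the others. Its 7 adipocyte markers summed to 12562 FPKM, against 8716 in WT 1 and 1604 to 4143 in the rest. The 8 smooth muscle markers reached 4956 FPKM in it, and 8498 to 14941 in the others, WT 1 being the next lowest. Results are therefore also given without Npr1+/- 1, which keeps WT 1, and some without both libraries numbered 1. The fit with the replicate number as a block, which sets each Npr1+/- library against the WT library of the same number, is given where it moves a count.

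By mean FPKM over the 6 libraries the genes ran from rank 12 of the table for *Bgn* to rank 17458 for *Hapln2*. A mean FPKM of 100 or more was reached by 6 genes, *Bgn*, *Dcn*, *Ogn*, *Postn*, *Fn1* and *Prelp*. Another 20 lay between 10 and 100, 6 between 1 and 10, and 11 under 1. Together the 43 genes took between 0.583% of all FPKM in Npr1+/- 1 and 1.46% in WT 2. Most of that was SLRP message, between 0.439% and 1.15% of all FPKM.

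**Figure D1:**
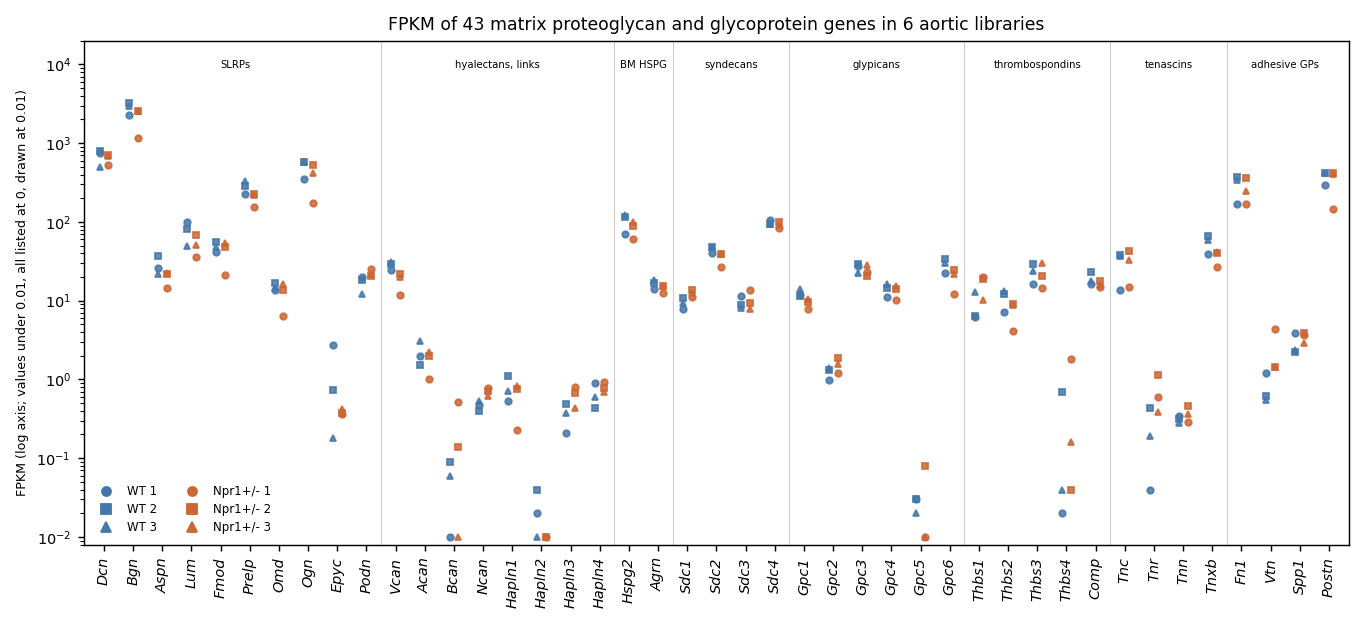
FPKM (log axis) of each of the 43 genes in the 3 WT (blue) and 3 Npr1+/- (orange) libraries, with circles, squares and triangles for the libraries numbered 1, 2 and 3, and values of 0 drawn at 0.01; BM HSPG stands for the basement membrane proteoglycans and GPs for glycoproteins. Levels ran from over 1000 for *Bgn* to values listed at 0 for *Bcan*, *Hapln2* and *Gpc5*, and the circle of Npr1+/- 1 was the lowest of the 6 for most abundant SLRPs.

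Many of these genes lie side by side in the genome (RefSeq positions on GRCm38.p6, the build the submitters' notes call mm10). On chromosome 13, *Aspn* (49544443 to 49567565), *Omd* (49582462 to 49592612) and *Ogn* (49608015 to 49624501) follow each other with gaps of 14.9 and 15.4 kb. On chromosome 10, *Dcn* (97479500 to 97518163) is 47.3 kb from *Lum* (97565501 to 97572703), and *Kera* is the only coding gene between *Lum* and *Epyc*. *Prelp* and *Fmod* are neighbours on chromosome 1. Each hyalectan gene has a link protein gene beside it with no coding gene between, at a gap of 43.5 kb for *Vcan* and *Hapln1* on chromosome 13, 18.4 kb for *Bcan* and *Hapln2* on chromosome 3, 1.93 kb for *Acan* and *Hapln3* on chromosome 7, and 2.22 kb for *Ncan* and *Hapln4* on chromosome 8. Neighbours did not always share a level. *Vcan* had a mean of 22.9 FPKM and its neighbour *Hapln1* 0.693, and within the chromosome 13 cluster the mean was 24.2 for *Aspn* and 438 for *Ogn*. Other neighbours were closer, such as *Ncan* at 0.587 and *Hapln4* at 0.723.

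Between Npr1+/- and WT aortas the quasi-likelihood test of edgeR, adjusted by the Benjamini-Hochberg method over 13938 genes, called 0 members and 0% of all genes. A call needed an adjusted p below 0.05 together with a log2 fold change of 0.5 or more in size. Of the 43 members 39 passed the filter on low counts and were tested, and *Bcan*, *Hapln2*, *Gpc5* and *Thbs4* did not pass. DESeq2 called 0 of the 43 members and 0.0942% of the genes to which it gave an adjusted p, and at an unadjusted p under 0.05 it found 7 members (16.3%, against 3.23% of all genes). At an unadjusted p under 0.05 edgeR found 4 members (10.3% of those tested), *Vcan* and *Gpc1* lower and *Sdc1* and *Vtn* higher in Npr1+/- aortas, against 2.96% of all genes (1.08% lower and 1.88% higher). Blocking on the replicate number brought the members at that unadjusted p to 14 (35.9%), 9 lower and 5 higher, against 12.4% of all genes (5.09% lower and 7.36% higher), and again 0 were called (smallest adjusted p of a member 0.133 from edgeR, for *Vcan*; 0% of all genes called). Without Npr1+/- 1 they were 2 of 39, *Vcan* and *Sdc1*, against 2.51% of all genes. Without both libraries numbered 1, a choice made after seeing the data, they were 11 (28.2%, against 11.5% of all genes), and 0 members and 0.00717% of all genes were called.

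Most members had a negative fold change. The log2 fold change of Npr1+/- over WT was below 0 for 26 of the 39 (66.7%, against 48.4% of all genes), with a median of -0.20 over the members and 0.01 over all genes. Without Npr1+/- 1 it was below 0 for 20 of 39 (51.3%, against 56.5% of all genes), with a median of -0.04. With both libraries numbered 1 left out it was below 0 for 25 of 39 (64.1%). The median was then -0.09 over the members and 0.01 over all genes. The lowest normalized CPM of the 6 libraries (CPM after TMM scaling between libraries) lay in Npr1+/- 1 for 21 of 39 members (53.8%, against 29.6% of all genes), and the highest for 6 (15.4%, against 28.9%). WT 2 held the highest for 11 members (28.2%, against 13% of all genes) and WT 3 for 10 (25.6%, against 19.9%). Both libraries numbered 1 lay below the other 4 for 15 members (38.5%, against 24.1% of all genes) and above them for 2 (5.13%, against 23.9%). Within all 3 numbers the Npr1+/- library was below the WT library for 15 members (38.5%, against 16.9%) and above it for 7 (17.9%, against 17.5%).

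**Figure D2:**
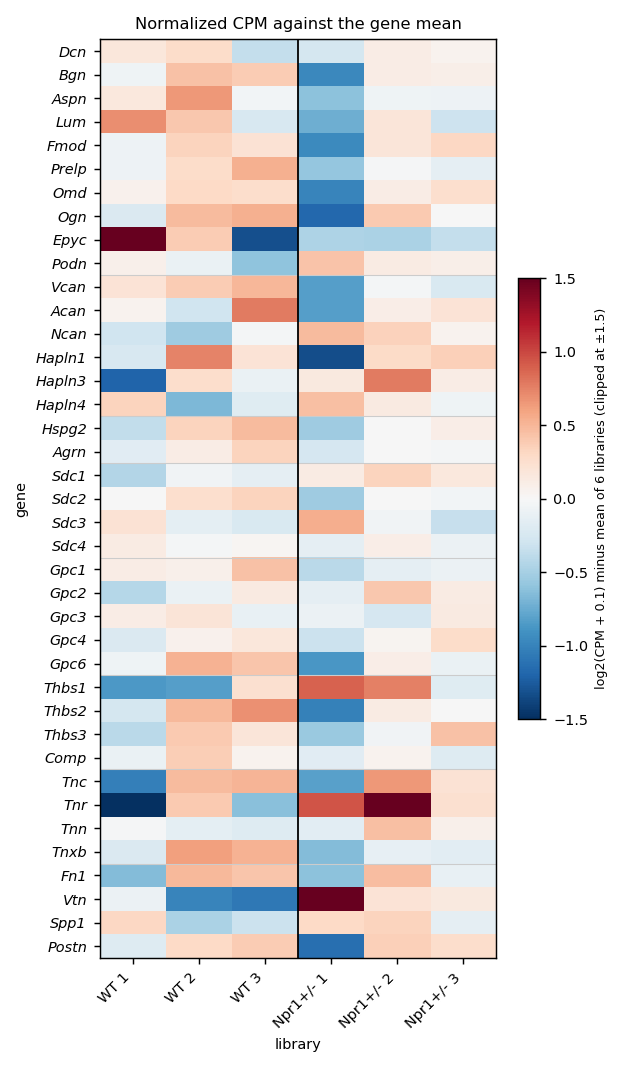
Normalized CPM of the 39 tested genes (rows, grouped by family) in the 6 libraries (columns, WT left and Npr1+/- right of the line), as log2(CPM + 0.1) minus the mean of the gene, red above and blue below it. Npr1+/- 1 holds the deepest blue of most SLRP rows, while *Vtn*, *Podn* and *Sdc1* are redder in each Npr1+/- column than in the WT column of its number.

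In 8 members the 3 Npr1+/- libraries all lay on one side of the 3 WT libraries in normalized CPM, 20.5% of the 39 against 7.48% of all genes. Without WT 1 there were 19 such members (47.5%, against 33% of all genes), and without both libraries numbered 1 there were 20 (51.3%, against 44.6%). *Vcan*, *Aspn*, *Gpc1* and *Sdc2* were lower in Npr1+/- aortas (10.3% of members, 3.58% of all genes) and *Podn*, *Sdc1*, *Ncan* and *Vtn* were higher (10.3% of members, 3.9% of all genes). The table of RefSeq promoters used here holds a window for 6 of these 8 genes. The 100 bases before the transcript start of that table are printed below so that the promoters of members that were lower can be set beside those of members that were higher. Capitals mark a GC box, a TATA box or a CCAAT box, on either strand, and no matches overlapped in these stretches. For *Vcan* that start lies inside the gene's annotated span, so that the whole stretch falls within the gene, and the stretch of *Ncan* overlaps the outer end of its gene. *Aspn* and *Vcan* were lower, and *Podn*, *Ncan*, *Sdc1* and *Vtn* higher, in Npr1+/- aortas.
Aspn (chr13:49544343-49544442, plus strand): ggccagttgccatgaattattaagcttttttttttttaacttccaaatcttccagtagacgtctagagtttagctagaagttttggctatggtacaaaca
Vcan (chr13:89742513-89742612, minus strand): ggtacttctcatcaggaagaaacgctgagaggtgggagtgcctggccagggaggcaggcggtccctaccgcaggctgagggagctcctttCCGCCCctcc
Podn (chr4:108031955-108032054, minus strand): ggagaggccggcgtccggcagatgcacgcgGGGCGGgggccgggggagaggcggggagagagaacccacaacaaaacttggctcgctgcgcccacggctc
Ncan (chr8:70120845-70120944, minus strand): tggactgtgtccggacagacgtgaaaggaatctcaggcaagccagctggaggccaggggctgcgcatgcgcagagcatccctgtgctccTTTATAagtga
Sdc1 (chr12:8771296-8771395, plus strand): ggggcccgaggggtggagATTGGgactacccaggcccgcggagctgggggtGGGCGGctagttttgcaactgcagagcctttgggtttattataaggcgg
Vtn (chr11:78499020-78499119, plus strand): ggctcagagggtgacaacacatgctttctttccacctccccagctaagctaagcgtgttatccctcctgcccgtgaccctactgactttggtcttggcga

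The letters searched on both strands were GGGCGG for the GC box, TATAAA for the TATA box and CCAAT for the last. The stretches of *Vcan*, *Podn* and *Sdc1* hold a GC box, that of *Sdc1* also a CCAAT box, and that of *Ncan* a TATA box, so that the GC box occurred on both sides of the comparison. In the whole windows of 300 bases, from 250 before to 50 after the start, the GC box was found for 18 of 34 members with a window (52.9%) and for 38.2% of all 27025 genes. The TATA box was found for 10 of 34 members (29.4%, against 15.7% of genes) and the CCAAT box for 15 (44.1%, against 41.1%). The AP-1 site TGACTCA, looked for on both strands as well, was in the window of 1 member, *Tnxb* (2.94%, against 5.95% of genes). A match is a run of letters and was not tested for binding.

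**Figure D3:**
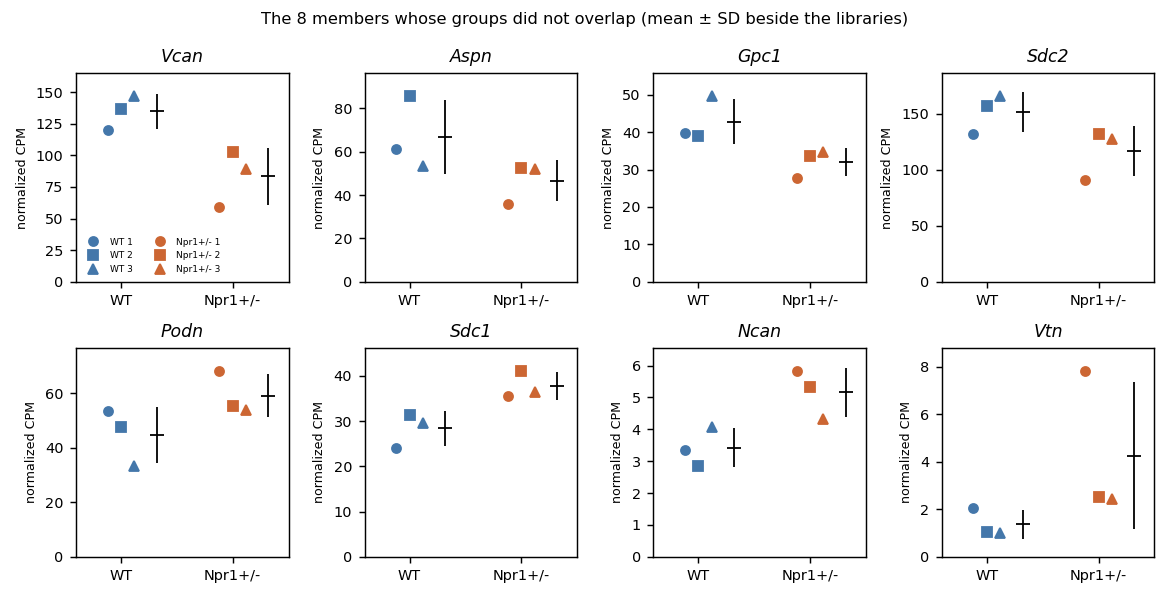
Normalized CPM (axes from 0) of the 8 genes whose groups did not overlap, in the 3 WT (blue) and 3 Npr1+/- (orange) libraries, with the mean ± SD in black beside them. *Vcan*, *Aspn*, *Gpc1* and *Sdc2* are lower and *Podn*, *Sdc1*, *Ncan* and *Vtn* higher in every Npr1+/- library, and the gap is narrow for *Aspn*, *Sdc2* and *Podn*.

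Among the 10 SLRPs, 9 had a negative log2 fold change, against 48.4% of all genes, with a family median of -0.44. Without Npr1+/- 1 it was negative for 7 of the 10, against 56.5% of all genes, with a median of -0.14. With both libraries numbered 1 left out it was negative for 8 of the 10, with a median of -0.19. Without the block 0 of the 10 had an unadjusted p under 0.05 from edgeR. With the block *Aspn*, *Prelp* and *Ogn* were lower and *Podn* was higher at that level, against 5.09% and 7.36% of all genes. *Bgn*, biglycan, was the most abundant member in all 6 libraries. Its FPKM in WT 1, 2 and 3 stood at 2290.62, 3276.29 and 2974.84, against 1165.78, 2526.56 and 2578.88 in Npr1+/- 1, 2 and 3. Npr1+/- 1 was far below the rest, and the other Npr1+/- libraries lay above WT 1. On the log2 scale the fold change was -0.44 (standard error, SE, 0.43; unadjusted p = 0.336 from edgeR) and -0.18 without Npr1+/- 1. *Dcn*, decorin, the SLRP that binds TGF-beta and coats collagen I fibrils, had an FPKM of 749.36, 806.09 and 496.37 in WT and of 530.49, 700.46 and 696.00 in Npr1+/- aortas. WT 3 was the lowest library, and the groups overlapped throughout (log2 fold change -0.08, SE 0.27, unadjusted p = 0.778 from edgeR, and 0.01 without Npr1+/- 1). The ratio of these abundant SLRPs, chosen after their values were seen, was not fixed, since *Bgn* was between 2.20 times *Dcn* in Npr1+/- 1 and 5.99 times in WT 3 on the FPKM scale.

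*Ogn*, osteoglycin or mimecan, had an FPKM of 355.59, 577.32 and 575.14 in WT and of 174.51, 531.25 and 415.27 in Npr1+/- aortas. Both libraries numbered 1 were the lowest of their genotype, and the groups overlapped. Its log2 fold change was -0.43 (SE 0.44, unadjusted p = 0.366 from edgeR) and -0.53 with the block (unadjusted p = 0.0423 and adjusted p = 0.378 from edgeR). It was -0.10 (unadjusted p = 0.731 from edgeR) without Npr1+/- 1, and -0.3 (unadjusted p = 0.117 from edgeR) without both libraries numbered 1. *Prelp*, which anchors basement membranes to the underlying collagen, had an FPKM of 225.36, 289.06 and 329.92 in WT and of 152.99, 229.09 and 218.26 in Npr1+/- aortas. Each Npr1+/- library was below the median of WT, and Npr1+/- 2 was above WT 1. *Prelp* had a log2 fold change of -0.49 (SE 0.27, unadjusted p = 0.11 from edgeR), with an unadjusted p of 0.0222 and an adjusted p of 0.311 from edgeR with the block, and a log2 fold change of -0.35 without Npr1+/- 1. Leaving out both libraries numbered 1 gave -0.49 (unadjusted p = 0.0115, adjusted p = 0.31 from edgeR). *Lum*, lumican, a regulator of fibril spacing, had an FPKM of 99.43, 82.02 and 50.12 in WT and of 35.52, 67.91 and 50.39 in Npr1+/- aortas. WT 1 was the highest and Npr1+/- 1 the lowest library, so that the libraries numbered 1 lay at opposite ends (log2 fold change -0.57, SE 0.31, unadjusted p = 0.11 from edgeR, and -0.40 without Npr1+/- 1).

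*Aspn*, asporin, which binds collagen and TGF-beta, had normalized CPM of 61.3, 86.0 and 53.4 in WT and of 35.7, 52.4 and 52.2 in Npr1+/- aortas. The gap between WT 3 and Npr1+/- 2 was narrow, and on the FPKM scale the groups overlapped, with 22.02 in WT 3 and 22.76 in Npr1+/- 3. Its log2 fold change was -0.52 (SE 0.23, unadjusted p = 0.0658 from edgeR), and -0.51 with the block (unadjusted p = 0.0151, adjusted p = 0.274) and -0.37 without Npr1+/- 1. The only SLRP with a positive fold change was *Podn*, podocan, a more distant relative that has been tied to restrained growth of smooth muscle. Its FPKM was 20.00, 18.05 and 12.03 in WT and 24.91, 20.45 and 21.91 in Npr1+/- aortas. Without overlap between the groups, the mean was 16.7 ± 4.15 (SD, n = 3) against 22.4 ± 2.27 (SD, n = 3), and the log2 fold change 0.40 (SE 0.20, unadjusted p = 0.0887 from edgeR; 0.0115 with the block, adjusted p = 0.254), and 0.27 without Npr1+/- 1. *Podn* was highest in the library where most other SLRPs were lowest, and made up 1.17% of summed SLRP FPKM in Npr1+/- 1 against 0.266% to 0.538% in the others. *Epyc*, epiphycan, best known from growth plate cartilage, was at 2.76, 0.74 and 0.18 FPKM in WT and at 0.36, 0.37 and 0.42 in Npr1+/- aortas, so that its log2 fold change of -1.63 (SE 0.89, unadjusted p = 0.113 from edgeR) rested on WT 1 and was -0.23 without it. The remaining SLRPs, *Fmod* at 21.35 to 55.15 FPKM and *Omd* at 6.37 to 16.55, were also lowest in Npr1+/- 1, with overlap.

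Among the hyalectans *Vcan*, versican, the main one of the arterial wall and a gene of smooth muscle and fibroblasts, took 73.5% to 87.6% of the summed FPKM of hyalectans and link proteins. Its FPKM was 24.41, 29.00 and 30.82 in WT and 11.79, 21.65 and 19.87 in Npr1+/- aortas. All 3 Npr1+/- libraries were below the lowest WT library, and Npr1+/- 1 was the lowest. The mean was 28.1 ± 3.30 (SD, n = 3) against 17.8 ± 5.25 (SD, n = 3), 63.3% of WT. This gave a log2 fold change of -0.69 (SE 0.22, unadjusted p = 0.0182 and adjusted p = 0.999 from edgeR), between -0.87 and -0.51 when any 1 library was dropped, and -0.51 (unadjusted p = 0.013) without Npr1+/- 1. With the block it was -0.72 (SE 0.14, unadjusted p = 0.00117, adjusted p = 0.133). *Acan*, aggrecan, the cartilage hyalectan, was at 1.00 to 3.07 FPKM with overlap between the groups. The 9 chondrocyte markers summed to 1.64 to 3.62 FPKM, most of it from *Sox9* at 0.78 to 2.47. *Chad* reached 0.92 and *Col2a1* no more than 0.08, and the part of cartilage cells in the values of *Acan* was not tested.

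*Ncan* and *Bcan*, neurocan and brevican, are hyalectans of the nervous system. *Ncan* had an FPKM of 0.47, 0.40 and 0.54 in WT and of 0.78, 0.72 and 0.61 in Npr1+/- aortas. Every Npr1+/- library was above every WT library, at a low level of 2.84 to 5.84 CPM, with a log2 fold change of 0.59 (SE 0.25, unadjusted p = 0.0554 from edgeR) and 0.48 (unadjusted p = 0.135) without Npr1+/- 1. *Bcan* was at 0.51 FPKM in Npr1+/- 1, 0.14 in Npr1+/- 2 and no more than 0.09 in the others, being listed at 0 in WT 1 and Npr1+/- 3. Of the 11 neuron markers 10 were highest in Npr1+/- 1, *Dbh* at 56.15 FPKM there against 0.25 in Npr1+/- 2 and no more than 0.03 in the others. *Stmn2*, another of them, was also higher in Npr1+/- 2 and 3, at 4.88 and 4.16 FPKM, than in WT, at 2.29 to 2.76. *Uchl1*, the most abundant of them, was at 61.94 and 64.83 there, against 64.50 to 78.55 in WT. Summed over the 11 markers, Npr1+/- 2 and 3 were at 68.4 and 69.95 FPKM, within the WT range of 67.7 to 82.2, but most of that sum was *Uchl1*. Like *Stmn2*, *Phox2a* and *Rbfox3* were above every WT library in both Npr1+/- 2 and 3, at 0.26 FPKM or less. The remaining markers were not above WT in both. The part of neuronal RNA in the values of *Ncan* and *Bcan* was not tested. Of the link proteins, which lock hyalectans to hyaluronan, *Hapln1*, *Hapln3* and *Hapln4* lay between 0.21 and 1.09 FPKM with overlap, and *Hapln2* was at 0.04 or less.

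The basement membrane proteoglycans were lower in fold change, with overlap. *Hspg2*, perlecan, which is made by endothelium and smooth muscle and checks the growth of the latter, had an FPKM of 70.49, 116.06 and 121.91 in WT and of 60.05, 88.53 and 98.74 in Npr1+/- aortas. The libraries numbered 1 were the lowest of both genotypes, and within each number the Npr1+/- library was lower (log2 fold change -0.32, SE 0.32, unadjusted p = 0.361 from edgeR, and -0.16 without Npr1+/- 1). *Agrn*, agrin, was at 12.49 to 18.39 FPKM.

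The syndecans, transmembrane heparan sulfate proteoglycans that serve as co-receptors for growth factors and matrix, differed in direction. *Sdc4*, the syndecan of focal adhesions, was the steadiest abundant member at 104.46, 94.83 and 93.29 FPKM in WT and 83.34, 99.89 and 90.74 in Npr1+/- aortas. Its highest library was 1.25 times its lowest, and the groups overlapped (log2 fold change -0.08, SE 0.15). *Sdc2*, the syndecan of mesenchymal cells, had an FPKM of 40.00, 47.98 and 48.45 in WT and of 26.50, 39.02 and 39.30 in Npr1+/- aortas. The groups did not overlap, by a margin of less than 1 FPKM between WT 1 and Npr1+/- 3 (log2 fold change -0.38, SE 0.19, unadjusted p = 0.0899 from edgeR; 0.0124 with the block, adjusted p = 0.261), and it was -0.24 (unadjusted p = 0.146) without Npr1+/- 1. *Sdc1*, the syndecan of epithelia and plasma cells, had an FPKM of 7.94, 10.68 and 9.40 in WT and of 11.21, 13.63 and 12.36 in Npr1+/- aortas. All Npr1+/- libraries were above all WT libraries, and within each number the Npr1+/- library was higher. The mean was 9.34 ± 1.37 (SD, n = 3) against 12.4 ± 1.21 (SD, n = 3), 133% of WT, with a log2 fold change of 0.41 (SE 0.14, unadjusted p = 0.0268 and adjusted p = 0.999 from edgeR) that was 0.44 (unadjusted p = 0.0296) without Npr1+/- 1. *Sdc1* was thus 0.194 to 0.223 times *Sdc2* in WT and 0.315 to 0.423 times in Npr1+/- aortas on the FPKM scale, a ratio chosen after both values were seen. *Sdc3* was at 7.80 to 13.79 FPKM with overlap.

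The glypicans, which hang from the membrane by a lipid anchor and shape Wnt, hedgehog and FGF signals, were led by *Gpc3* and *Gpc6*. *Gpc6* had an FPKM of 22.28, 33.65 and 29.86 in WT and of 12.04, 24.31 and 22.04 in Npr1+/- aortas. Npr1+/- 1 was the lowest, and Npr1+/- 2 lay above WT 1. For *Gpc6* the log2 fold change was -0.55 (SE 0.29, unadjusted p = 0.102 from edgeR), and -0.58 with the block (SE 0.13, unadjusted p = 0.0026, adjusted p = 0.153). It was -0.32 (unadjusted p = 0.166 from edgeR) without Npr1+/- 1. Leaving out both libraries numbered 1 gave -0.46 (unadjusted p = 0.00687, adjusted p = 0.283 from edgeR). *Gpc1*, the glypican found in endothelium and smooth muscle, had an FPKM of 11.69, 11.61 and 14.05 in WT and of 7.84, 9.62 and 10.45 in Npr1+/- aortas. The groups did not overlap, with means of 12.4 ± 1.39 (SD, n = 3) and 9.30 ± 1.33 (SD, n = 3), 74.7% of WT. Its log2 fold change was -0.42 (SE 0.15, unadjusted p = 0.031 and adjusted p = 0.999 from edgeR) and -0.34 (unadjusted p = 0.0592) without Npr1+/- 1. *Gpc3* lay between 20.88 and 29.29 FPKM, *Gpc4* between 10.30 and 16.44 and *Gpc2* between 0.97 and 1.86, all with overlap, and *Gpc5* was at 0.08 or less. *Gpc2* shares 91.9% of its exon bases with *Gm43720* on the same strand in GENCODE M21, so that its count is uncertain.

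**Figure D4:**
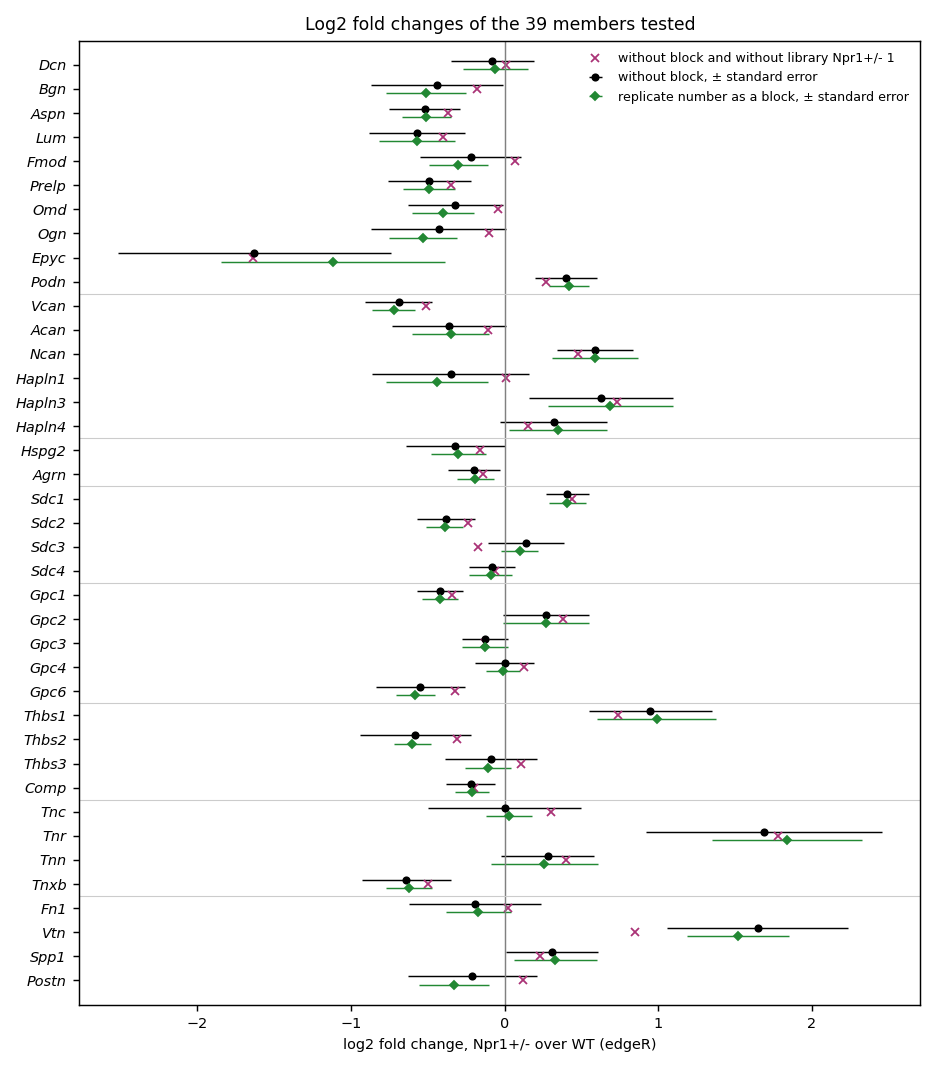
Log2 fold change of Npr1+/- over WT for the 39 tested genes, grouped by family, from edgeR without the block (black circles) and with the block on replicate number (green diamonds), each with its standard error, and without the library Npr1+/- 1 (purple crosses). The crosses of *Bgn*, *Ogn* and *Vtn* lie closer to 0 than the circles and those of *Fmod* and *Postn* past it, while those of *Sdc1* and *Gpc1* stay near them.

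*Thbs1* and *Thbs2*, thrombospondins 1 and 2, both block angiogenesis and bind CD36 and CD47, and they differed in direction. *Thbs1* had an FPKM of 6.20, 6.44 and 12.81 in WT and of 19.98, 18.63 and 10.13 in Npr1+/- aortas. WT 1 and WT 2 were low and Npr1+/- 1 and 2 high, while WT 3 was above Npr1+/- 3. The log2 fold change was 0.95 (SE 0.40, unadjusted p = 0.0504 from edgeR; 0.0383 with the block, adjusted p = 0.365), and 0.74 (unadjusted p = 0.129) without Npr1+/- 1. *Thbs2* had an FPKM of 7.23, 12.24 and 13.34 in WT and of 4.09, 9.21 and 8.71 in Npr1+/- aortas. Within each number the Npr1+/- library was lower, and across numbers the groups overlapped because WT 1 was the lowest of its genotype. Its log2 fold change was -0.58 without the block (SE 0.36, unadjusted p = 0.151 from edgeR) and -0.60 with it (SE 0.12, unadjusted p = 0.00137, adjusted p = 0.137). For *Thbs2* it was -0.31 (unadjusted p = 0.293 from edgeR) without Npr1+/- 1. When both libraries numbered 1 were left out it was -0.53 (unadjusted p = 0.00304, adjusted p = 0.236 from edgeR). *Thbs4*, of tendon, heart and nerve, was at 0.02, 0.69 and 0.04 FPKM in WT and 1.80, 0.04 and 0.16 in Npr1+/- aortas, so that each group's mean rested on 1 library. *Thbs3* at 14.56 to 30.51 FPKM and *Comp*, the cartilage oligomeric matrix protein that smooth muscle also makes, at 15.03 to 23.16, overlapped between the groups.

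The tenascins are large oligomeric glycoproteins of remodelled and mechanically loaded matrix. *Tnxb*, tenascin X, which keeps collagen fibrils in register and whose loss causes a form of Ehlers-Danlos syndrome, had an FPKM of 38.70, 66.57 and 58.87 in WT and of 26.61, 40.41 and 41.32 in Npr1+/- aortas. Only WT 1 lay within the range of the Npr1+/- libraries, and each Npr1+/- library was below the WT library of its number. The mean was 54.7 ± 14.4 (SD, n = 3) against 36.1 ± 8.24 (SD, n = 3), 66.0% of WT, with a log2 fold change of -0.64 (SE 0.29, unadjusted p = 0.0614 from edgeR), and with the block of -0.62 (SE 0.15, unadjusted p = 0.00403, adjusted p = 0.18). The fold change of *Tnxb* was -0.50 (unadjusted p = 0.112 from edgeR) without Npr1+/- 1. Leaving out both libraries numbered 1 gave -0.71 (unadjusted p = 0.000603, adjusted p = 0.182 from edgeR). *Tnc*, tenascin C, the injury-induced member, was at 13.69 in WT 1 and 14.78 in Npr1+/- 1 and at 32.72 to 42.52 FPKM in the other 4 libraries, so that it parted by number and not by genotype. *Tnr*, tenascin R, of the nervous system, had an FPKM of 0.04, 0.43 and 0.19 in WT and of 0.59, 1.15 and 0.39 in Npr1+/- aortas. It was higher in Npr1+/- within each number and highest in Npr1+/- 2, and the part of neuronal RNA in it was not tested (log2 fold change 1.69, SE 0.77, unadjusted p = 0.0661 from edgeR; 0.00645 with the block, adjusted p = 0.21; log2 fold change 1.78 without Npr1+/- 1). *Tnn* was at 0.28 to 0.46 FPKM.

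Of the adhesive glycoproteins the abundant ones did not part the genotypes. *Fn1*, fibronectin, the ligand of integrin alpha 5 beta 1, had an FPKM of 169.78, 377.40 and 342.53 in WT and of 167.14, 358.88 and 250.07 in Npr1+/- aortas. Both libraries numbered 1 were about level and the lowest (log2 fold change -0.19, SE 0.43, unadjusted p = 0.672 from edgeR, and 0.02 without Npr1+/- 1). *Postn*, periostin, a product of activated fibroblasts, had an FPKM of 293.88, 417.98 and 420.82 in WT and of 146.93, 421.72 and 409.61 in Npr1+/- aortas. Leaving out Npr1+/- 1 turned its log2 fold change from -0.21 (SE 0.42) to 0.12. *Spp1*, osteopontin, was at 2.24 to 3.89 FPKM with overlap. *Vtn*, vitronectin, the plasma protein that binds integrin alpha v, had an FPKM of 1.19, 0.62 and 0.55 in WT and of 4.37, 1.44 and 1.43 in Npr1+/- aortas. The groups did not overlap, and both libraries numbered 1 were the highest of their genotype. Its log2 fold change was 1.65 (SE 0.59, unadjusted p = 0.0279 from edgeR) and 0.85 (unadjusted p = 0.101) without Npr1+/- 1, and 1.52 with the block (SE 0.33, unadjusted p = 0.00202, adjusted p = 0.143). Hepatocytes are the main source of plasma vitronectin. Of their markers *Alb* was at 1.04 FPKM in Npr1+/- 1 and at 0 to 0.32 in the others, and *Serpina1c* was at 0.34 in Npr1+/- 1 and listed at 0 in the others, so that both were highest in the library where *Vtn* was highest. *Apoa1*, *Apoh*, *Ttr* and *Fgb*, at no more than 0.34 FPKM, were not highest there, and the part of such cells in the values of *Vtn* was not tested.

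Levels of some cell type markers moved with the same libraries, and those of others did not. Summed SLRP FPKM was 3824, 5159 and 4523 in WT and 2127, 4160 and 4075 in Npr1+/- aortas. The 9 fibroblast markers summed to between 1055 and 1574 FPKM in WT and between 744 and 1190 in Npr1+/- aortas, and Npr1+/- 1 was lowest in 5 of the 9 genes and in the sum. Their sum was 1313 in WT 1 and 1055 in WT 3, the reverse of the order of the SLRPs in these libraries. Of the 8 smooth muscle markers 7 were lowest in Npr1+/- 1. The 8 endothelial markers summed to 149 to 234 FPKM in WT and 276 to 382 in Npr1+/- aortas without overlap. At an unadjusted p under 0.05 from edgeR 4 of the 8 were higher, against 1.88% of all genes. All 8 were highest in Npr1+/- 1. In both Npr1+/- 2 and 3, *Cdh5*, *Kdr* and *Tek* lay within the WT range of FPKM, and *Pecam1*, *Vwf*, *Tie1* and *Egfl7* lay above it. *Emcn* was above it in Npr1+/- 3 only. All 7 adipocyte markers and 6 of 8 Schwann cell markers were highest in Npr1+/- 1. The 7 macrophage markers summed to 80.4 to 215 FPKM in WT and 105 to 149 in Npr1+/- aortas. Cardiac muscle markers lay between 14.2 and 32.3 FPKM, skeletal muscle markers between 3.69 and 5.94, mesothelial and epithelial markers between 5.14 and 9.36, and chondrocyte markers between 1.64 and 3.62. The hepatocyte list reached 97.6 to 610 FPKM through *Hp*, which adipocytes express as well. The part of these cell types in the differences above was not tested.

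**Figure D5:**
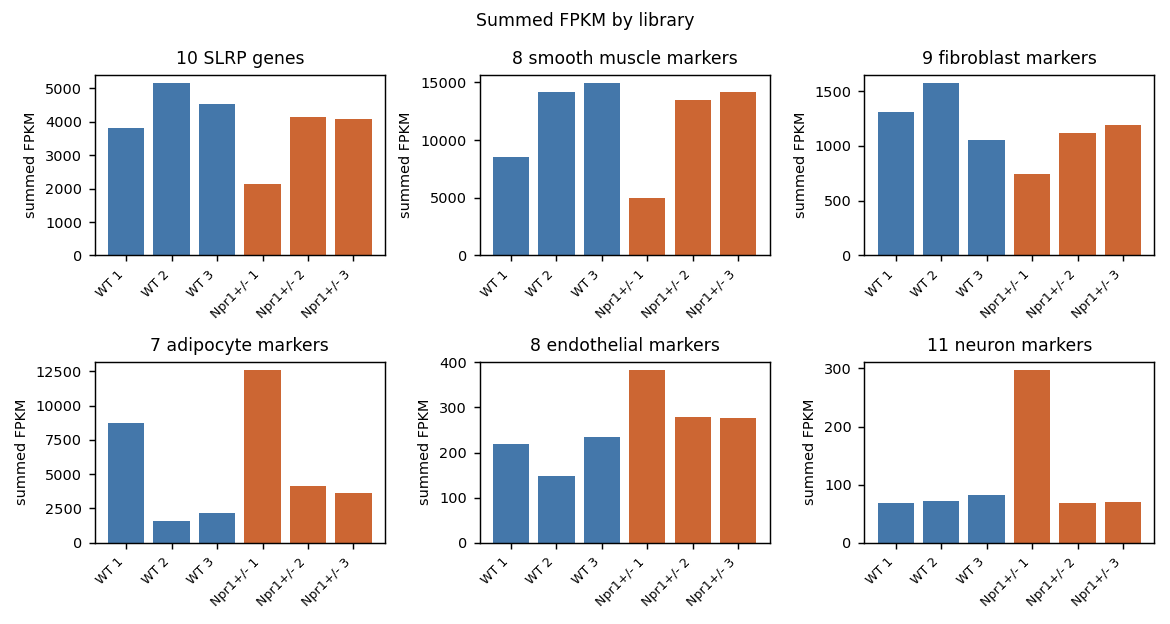
Summed FPKM (axes from 0) by library of the 10 SLRP genes and of the markers of 5 cell types, WT in blue and Npr1+/- in orange, 1 bar per library. Npr1+/- 1 is lowest for SLRPs, smooth muscle and fibroblasts and highest for adipocytes, endothelium and neurons, and WT 1 is the second highest for adipocytes.

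The enzymes that build, sulfate and cut the sugar chains, with hyaluronan synthases, receptors and the proteases that cleave hyalectans, were taken as 69 further genes. Of these 59 were tested and 0 were called. At an unadjusted p under 0.05 there were 3 (5.08%, against 2.96% of all genes), and with the block 14 (23.7%, against 12.4%), 9 lower and 5 higher. The log2 fold change was below 0 for 42 of the 59 (71.2%, against 48.4% of all genes), with a median of -0.11, and without Npr1+/- 1 for 38 of 60 (63.3%, against 56.5%). *Hyal2*, the membrane-anchored hyaluronidase that cuts long hyaluronan, had an FPKM of 16.20, 15.63 and 18.50 in WT and of 24.13, 24.16 and 23.57 in Npr1+/- aortas. The groups did not overlap and the Npr1+/- libraries were almost level, with a log2 fold change of 0.52 (SE 0.13, unadjusted p = 0.00452 and adjusted p = 0.999 from edgeR) and 0.49 without Npr1+/- 1. *Hyal1*, the lysosomal hyaluronidase that cuts the pieces further, had an FPKM of 31.96, 38.59 and 44.73 in WT and of 22.61, 30.15 and 30.04 in Npr1+/- aortas. It was lower without overlap. The log2 fold change of *Hyal1* was -0.47 (SE 0.18, unadjusted p = 0.038 from edgeR) and -0.38 (unadjusted p = 0.0702) without Npr1+/- 1. *Hs3st1*, a heparan sulfate 3-O-sulfotransferase of endothelium, had an FPKM of 5.08, 6.77 and 5.43 in WT and of 9.97, 8.87 and 6.74 in Npr1+/- aortas. Npr1+/- 3 was level with WT 2 in FPKM, while in normalized CPM the groups did not overlap. The log2 fold change of *Hs3st1* was 0.60 (SE 0.22, unadjusted p = 0.0298 from edgeR) and 0.45 (unadjusted p = 0.0897) without Npr1+/- 1. These 3 were the only ones of the 59 without overlap in normalized CPM (5.08%, against 7.48% of all genes).

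By step of the pathway, 15 genes were tested for the assembly of chondroitin and dermatan sulfate, the chains that versican, biglycan and decorin carry. Of the 15, 13 had a negative fold change, against 48.4% of all genes, with a median of -0.29. Without the block 0 had an unadjusted p under 0.05 from edgeR. With the block 6 were lower and 1, *Chst15*, was higher at that level, against 5.09% and 7.36% of all genes. Without Npr1+/- 1 the log2 fold changes of these 6 lay between -0.23 and -0.08, and that of *Chst15* turned from 0.75 to -0.13. They lay between -0.41 and -0.2 without both libraries numbered 1, where *Chst15* was at 0.54. The 17 tested heparan sulfate genes had a median of -0.10, with 1 of the 17 lower and 2 higher at that level with the block, near the shares of all genes. Of the 6 genes of the linkage tetrasaccharide, which all these chains share, and of the 7 hyalectan-cleaving ADAMTS proteases, 0 had an unadjusted p under 0.05 with or without the block.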

How the data were processed

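Libraries of aortic RNA of male mice, 3 labelled WT and 3 labelled Npr1+/-, were sequenced on DNA nanoball arrays. The submitters' notes name Bowtie2, RSEM, mm10 and DESeq2 (1.4.5). The deposited table holds the expected counts of RSEM, which the authors left unnormalized, and FPKM values, which the authors scaled by transcript length and depth. Total counts and the CPM that 3 counts stood for are given with the results. FPKM was used for levels. Expected counts were rounded and tested with edgeR (4.0.16; R 4.3.3) by TMM normalization, a filter at a minimum count of 10, the quasi-likelihood test and Benjamini-Hochberg adjustment over all genes tested. DESeq2 (1.42.0) and limma (3.58.1, on log2 of FPKM plus 0.1 or 1) were alternatives, as were no filter on low counts, DESeq2 size factors, a fold threshold of 1 on the log2 scale, each library left out, and the replicate number as a block. Leaving out both libraries numbered 1 was added after seeing the data. The numbers come from the sample titles. Deviations from the genotype means correlated between same-numbered libraries with r = 0.64, 0.39 and 0.24 over genes, all above 0.1, and were taken as pairs by that rule. Libraries of different number correlated at -0.58 to 0.44. WT 3 with Npr1+/- 2 at 0.44 and WT 2 with Npr1+/- 3 at 0.37 were also above 0.1. The rule therefore does not settle how the libraries numbered 2 and 3 pair, and the labels name no shared litter or day. The code was tested on simulated data. Members, pathway genes and markers were chosen with earlier results of these data known.

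Members described in full were the 10 highest in mean FPKM, those whose groups did not overlap, those with an unadjusted p under 0.05 with or without the block, *Tnr*, *Thbs4* and *Vtn*, which the study names, and the 5 with the widest range of FPKM. Promoters (250 bases before to 50 after the start) and positions are RefSeq's on GRCm38.p6, and exon overlaps came from GENCODE M21.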

Additional observations from a re-analysis of the deposited data

How the results depend on the processing

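No member and none of the glycosaminoglycan genes was called under any of the alternatives run. Over all genes the calls were 0, except 16 with DESeq2 and 1 without replicate 1 of both genotypes. Members at an unadjusted p under 0.05 numbered 4, against 7 with DESeq2, 14 in the fit that blocked on the replicate number and 11 (28.2%, against 11.5% of all genes) without replicate 1 of both genotypes. Leaving out each library in turn gave 2 to 5, the 2 being without Npr1+/- 1. The block changed no call, and the cause of its larger count was not tested. Members whose groups did not overlap numbered 8, and 8 to 19 with each library left out, the 19 (47.5% of those tested, against 33% of all genes) being without WT 1. They numbered 20 (51.3%, against 44.6% of all genes) without replicate 1 of both genotypes, where fewer libraries have to be parted. The median log2 fold change of the members ranged from -0.33 to -0.04 with each library left out, nearest to 0 without Npr1+/- 1. It was -0.09 without replicate 1 of both genotypes.

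With each library left out the log2 fold change of *Dcn* reached down to -0.26, of *Fn1* to -0.52 and of *Postn* to -0.47. For the 23 named members with a fit, 316 of 322 alternative values kept their direction. No member was called in any setting, so that the side of the threshold carries no information here. The 6 that turned direction lay close to 0, namely *Dcn* at 0.04 without WT 2, 0.01 without Npr1+/- 1 and 0.09 without replicate 1 of both genotypes, *Sdc4* at 0.00 without the latter pair, and *Fn1* at 0.02 and *Postn* at 0.12 without Npr1+/- 1. Many of the 23 were chosen for a low p or parted groups in these same data, so that the count does not extend to the other members. Of those, *Fmod* turned from -0.22 to 0.07, *Thbs3* from -0.09 to 0.11 and *Sdc3* from 0.14 to -0.17 without Npr1+/- 1. *Hapln1* turned from -0.35 to 0.01 and *Tnc* moved from -0.0 to 0.3. With 3 libraries a group and fold changes mostly under 1 on the log2 scale, an adjusted p above the threshold does not show that levels were the same. Members under 1 FPKM are limited by depth.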
